A study of Mus musculus with 6 samples.

Results

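Chemokines are small secreted proteins that guide the movement of immune cells, and Csf1 encodes colony stimulating factor 1, the growth and survival factor of macrophages. Transcript levels of 9 chemokine genes (Ccl2, Ccl5, Ccl7, Ccl20, Cxcl1, Cxcl10, Cxcl12, Cxcl16 and Cx3cl1) and Csf1 were read from a table of 54532 mouse genes, and all 10 genes were present. The 10 genes were selected by name and chosen from a contrast already seen, the FPKM of control against knockdown libraries, so their differences between these groups are given below as a description with no test. FPKM is the number of sequenced reads scaled for gene length and library depth, so levels can be compared between genes.

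The 6 libraries came from MIN6, a mouse insulinoma-derived cell line labelled as pancreatic beta cells, with 3 labelled control (titles shc 1 to 3) and 3 labelled PP2Ac knockdown (titles sh2 1 to 3). PP2Ac is the subunit that carries the enzyme activity of protein phosphatase 2A, which removes phosphate from serine and threonine residues. The labels do not spell out shc and sh2, name no further treatment, and do not say whether the libraries of a group came from separate cultures, so p-values set a difference only against the spread between these libraries. The series title concerns damage to beta cells by lipids, and the comparison asks how transcript levels differ between knockdown and control cells.

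CC chemokines such as Ccl2 and Ccl7 attract monocytes, Ccl5 attracts T cells and monocytes, and Ccl20 attracts cells that carry the receptor CCR6. Of the CXC chemokines, Cxcl1 attracts neutrophils, Cxcl10 is induced by interferon and attracts activated T cells, and Cxcl12 retains cells that carry CXCR4. Cxcl16 and Cx3cl1 are made as membrane-bound proteins that proteases can release. Many chemokine genes are switched on through NF-kB and interferon response elements in their promoters, and pancreatic beta cells are known to make several chemokines under cytokine stress.

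Promoter sequences show which of these elements lie close to the start sites. The RefSeq promoter table (GRCm38.p6) gave a window of 250 bases before and 50 bases after the start for 6 of the 10 genes: Ccl20, Csf1, Cxcl1, Cxcl10, Cxcl12 and Cx3cl1. No window was given for Ccl2, Ccl5, Ccl7 and Cxcl16, so their promoters were not searched. Both strands were searched for 4 patterns: the NF-kB forms GGGNNTTCC and GGGNNNTTCC, the interferon response element GAAANNGAAA, and the AP-1 site TGANTCA. The 4 windows of Cxcl10, Cxcl1, Ccl20 and Csf1 are shown because these are the members in which an NF-kB match was found, marked in capitals with the other matches. Only the 250 bases before the start are printed, 5' to 3' on the strand of the gene:
Cxcl10, chr5:92348890-92349139, minus strand: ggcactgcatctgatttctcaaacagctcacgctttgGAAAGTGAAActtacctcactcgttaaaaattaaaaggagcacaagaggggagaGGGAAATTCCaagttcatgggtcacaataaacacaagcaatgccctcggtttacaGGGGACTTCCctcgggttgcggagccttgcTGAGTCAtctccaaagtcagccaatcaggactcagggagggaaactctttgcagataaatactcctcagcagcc
Cxcl1, chr5:90890995-90891244, plus strand: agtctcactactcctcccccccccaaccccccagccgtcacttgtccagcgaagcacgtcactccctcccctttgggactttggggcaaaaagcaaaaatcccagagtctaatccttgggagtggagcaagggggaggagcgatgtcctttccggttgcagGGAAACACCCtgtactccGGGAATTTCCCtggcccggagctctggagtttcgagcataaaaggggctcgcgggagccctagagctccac
Ccl20, chr1:83116516-83116765, plus strand: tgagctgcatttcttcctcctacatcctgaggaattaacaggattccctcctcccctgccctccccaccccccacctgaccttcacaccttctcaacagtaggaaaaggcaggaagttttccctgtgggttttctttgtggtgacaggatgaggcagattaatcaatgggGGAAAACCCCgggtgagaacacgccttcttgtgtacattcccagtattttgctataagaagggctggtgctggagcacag
Csf1, chr3:107760470-107760719, minus strand: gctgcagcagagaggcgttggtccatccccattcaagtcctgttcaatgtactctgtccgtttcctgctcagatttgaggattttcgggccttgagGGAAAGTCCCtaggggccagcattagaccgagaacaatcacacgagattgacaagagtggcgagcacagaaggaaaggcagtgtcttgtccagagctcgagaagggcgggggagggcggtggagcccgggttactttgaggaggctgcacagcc

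The Cxcl10 window held matches to all 4 patterns. Counting back from -1 at the last base before the start, its interferon response element lay at -213 to -204, a 10-letter NF-kB match at -159 to -150, overlapping 10-letter and 9-letter NF-kB matches at -104 to -95 and -103 to -95, and an AP-1 match at -74 to -68. The Cxcl1 window held a 10-letter NF-kB match on the opposite strand at -89 to -80 and a pair that overlap on opposite strands at -71 to -62 and -70 to -61. In Ccl20, overlapping 10-letter and 9-letter matches lay at -80 to -71 and -80 to -72, and in Csf1 a 10-letter match lay at -154 to -145. The matches in Ccl20 and Csf1 were all on the strand opposite to the gene. The Cxcl12 and Cx3cl1 windows held none of the 4 patterns. One or the other NF-kB form occurred in 9.74% of 32817 promoter windows, and in 11.9% of 10429 windows whose gene averaged 1 FPKM or more over all libraries. The interferon response element occurred in 3.43% of all windows and the AP-1 site in 7.81%. A match describes letters in a window and not a bound factor.

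The Ppp2ca transcript was lower in each library labelled knockdown, and markers of beta cells and of immune cells were largely missing from both groups. Ppp2ca, which encodes the alpha isoform of PP2Ac, stood at 37.6 ± 4.33 FPKM in control and 10.8 ± 0.617 in knockdown (SD, n = 3; limma adjusted p = 5.35e-06). The labels do not say which isoform of PP2Ac was targeted. Recovered reads, computed from FPKM and gene length, numbered 14614737 to 16030939 per library. Of 11652 genes that averaged 1 FPKM or more, 62.4% passed the limma test at an adjusted p of 0.05. Of the genes that passed, 53.4% were higher in knockdown, a share of 38.9% with mitochondrial genes, rRNA and Gm23935 left out before rescaling, which moved the median of all log2 differences by -0.14. Ins1, Ins2, Nkx6-1 and Slc2a2 had no read in any library, which goes against the beta cell label, and 2 of 8 beta cell markers, Pdx1 and Mafa, were high enough to test and rose. Of 8 macrophage markers, Adgre1 and Itgam had no read and Ptprc had 3 reads in control and 4 in knockdown. Summed macrophage markers nevertheless ran from 34.5 to 38.3 FPKM in control and from 44.6 to 53.3 in knockdown, with Cd14 at 18.2 ± 2.26 and 44.2 ± 4.81 FPKM and Cd68 at 16.5 ± 3.82 and 2.27 ± 0.310 FPKM in control and knockdown (SD, n = 3). T and B cell markers summed to at most 0.885 FPKM in any library, with 4 of 7 at 0, and endothelial markers to at most 0.686, with 2 of 6 at 0. Of 8 fibroblast markers 5 were tested and passed as higher, but Pdgfra (0.734 ± 0.0418 and 1.58 ± 0.0974 FPKM) and Col3a1 (0.834 ± 0.304 and 31.7 ± 4.58 FPKM) entered the test only through their knockdown level, and Lum had no read. Summed fibroblast markers ran over 107 to 126 FPKM in control and 278 to 316 in knockdown. Reads of mitochondrial mRNA made up 2.65% to 3.38% of control and 1.23% to 1.34% of knockdown libraries. The part of these shifts in the values below was not tested. In bulk RNA, fewer cells of a type and less RNA per cell cannot be told apart.

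The summed transcript level of the 9 chemokine members differed between the 2 groups in amount and in makeup. The members were chosen on this contrast, so the sum and shares describe these genes alone. Other chemokine ligands, left out of the sum, came to 6.34 to 8.53 FPKM in control and 9.90 to 12.7 FPKM in knockdown libraries. The 9 chemokines summed to 17.0, 16.7 and 15.7 FPKM in the control libraries and to 57.6, 54.9 and 57.8 FPKM in the knockdown libraries. Every knockdown library lay above every control library. Cxcl1 took the largest share in control, with 41.3% to 49.3% of the sum, followed by Ccl20 with 19.8% to 22.1%. In knockdown Ccl5 led with 31.6% to 41.1%, then Ccl2 with 20.4% to 25.5% and Ccl7 with 18.4% to 24.8%. Cxcl1 then made up 12.0% to 12.4% and Ccl20 0.897% to 2.77%. Cxcl10 had 7.69% to 8.59% in control and 5.02% to 7.53% in knockdown, although its own level was higher there.

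**Figure D1:**
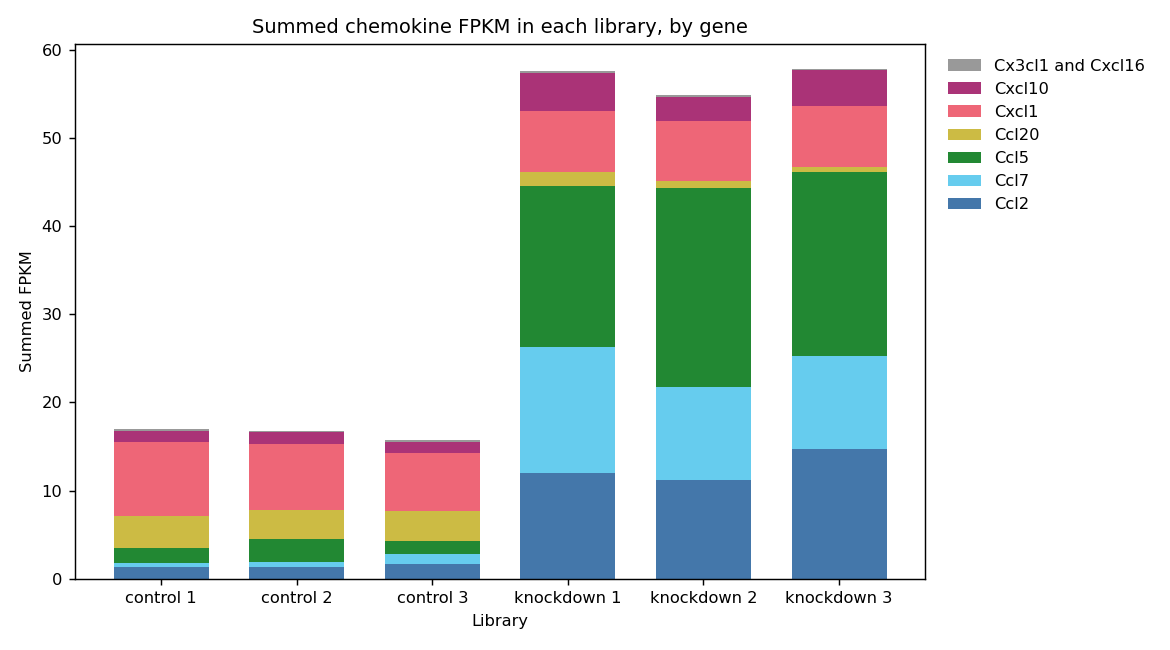
Summed FPKM of the chemokine genes (vertical axis) in each of the 6 libraries (horizontal axis), with each gene as a coloured segment; Cxcl12, at 0, has none. The control bars reach 15.7 to 17.0 and are filled mostly by Cxcl1 and Ccl20, and the knockdown bars reach 54.9 to 57.8 and are filled mostly by Ccl5, Ccl2 and Ccl7.

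Of the 10 genes, 7 averaged 1 FPKM or more and entered the test, and Cxcl12, Cxcl16 and Cx3cl1 did not. Ccl7 passed through its knockdown level alone and Ccl20 through its control level alone. Among the 7, 4 were past the limma threshold as higher and 2 as lower, beside 33.3% and 29.1% of all genes tested, and 6 had groups that did not overlap. Over all genes tested, 68.1% had groups that did not overlap, 36.4% with knockdown above control and 31.7% below. Since the genes were chosen on this contrast, nothing is read from these counts.

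**Figure D2:**
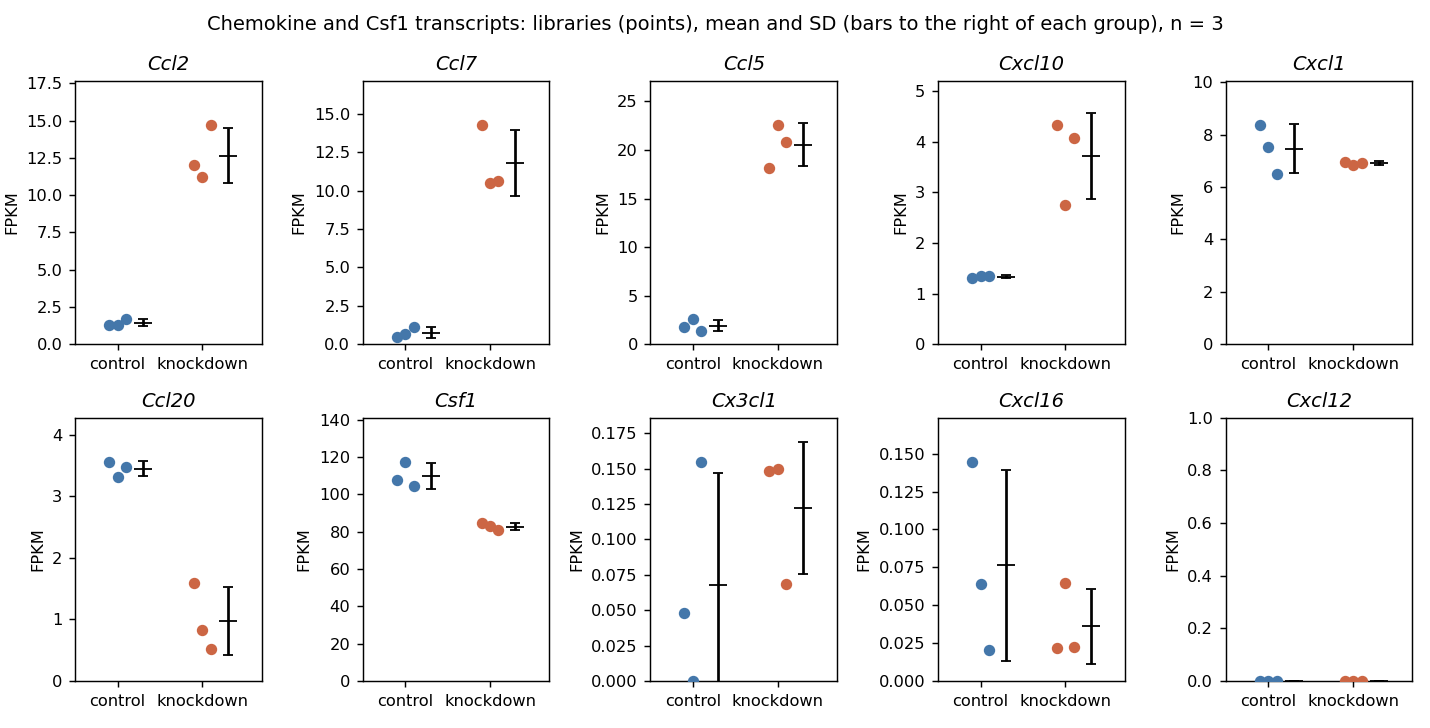
FPKM (vertical axes, each from 0 with its own scale) of the 10 genes in the 3 control and 3 knockdown libraries; points are libraries, and the bars to their right give the mean and SD. Ccl2, Ccl7, Ccl5 and Cxcl10 are higher and Ccl20 and Csf1 lower in all 3 knockdown libraries, while the groups overlap for Cxcl1, Cx3cl1 and Cxcl16, and Cxcl12 is at 0.

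Ccl2 and Ccl7, both ligands of the monocyte receptor CCR2, are neighbours on chromosome 11. Ccl2 (ENSMUSG00000035385, 82035571 to 82037453, plus strand, GRCm38) had 1.32, 1.30 and 1.71 FPKM in control and 12.0, 11.2 and 14.7 FPKM in knockdown. All 3 knockdown libraries were high, with means of 1.44 ± 0.232 and 12.6 ± 1.83 FPKM (SD, n = 3), an 8.76-fold ratio. Ccl7 (ENSMUSG00000035373, 82045712 to 82047525, plus strand) had 0.468, 0.644 and 1.14 FPKM in control and 14.3, 10.5 and 10.6 FPKM in knockdown. Again the groups did not overlap, and the means of 0.751 ± 0.349 and 11.8 ± 2.15 FPKM gave a 15.7-fold ratio. The control level of Ccl7 rested on 6, 8 and 15 reads, 29 in all with an exact Poisson 95% interval of 19.4 to 41.6, which covers counting error only. Knockdown library 1 was the highest for Ccl7 and library 3 for Ccl2. In FPKM, the ratio of Ccl2 to Ccl7 within a library was 2.82, 2.02 and 1.50 in control and 0.843, 1.06 and 1.39 in knockdown.

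Ccl5 (ENSMUSG00000035042, chromosome 11, 83525778 to 83530518, minus strand), the ligand also known as RANTES, was the most abundant chemokine transcript in knockdown. It had 1.76, 2.55 and 1.40 FPKM in control and 18.2, 22.6 and 20.8 FPKM in knockdown. The knockdown libraries all stood apart, with means of 1.90 ± 0.591 and 20.5 ± 2.21 FPKM (SD, n = 3), a 10.8-fold ratio. Within libraries, the ratio of Ccl5 to Cxcl1 FPKM was 0.210 to 0.339 in control and 2.61 to 3.31 in knockdown, so their order was opposite in the 2 groups.

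The chromosome 11 genes that lie beside these members were low, and several had more reads in knockdown. Between Ccl2 and Ccl7 lie 8258 bases, and Ccl11, Ccl12, Ccl8 and Ccl1 follow downstream. Ccl8 had 1 read in all control libraries together and 10 in knockdown, Ccl11 and Ccl12 had 0 and 1 each, and Ccl1 had none. Beside Ccl5, Ccl9 had 28 reads in control and 133 in knockdown, Ccl6 had 7 and 11, Ccl4 had 0 and 6, and Ccl3 had 0 and 1. All of these had a mean FPKM below 1 over the 6 libraries and were not tested. Ccl2 and Ccl7 in knockdown, with 657 and 433 reads, stood far above their neighbours.

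Cxcl10 was higher and Ccl20 lower in every knockdown library. Cxcl10 (ENSMUSG00000034855, chromosome 5, 92346638 to 92348889, minus strand), a classical interferon-induced chemokine whose promoter above holds the interferon response element, had 1.30, 1.35 and 1.35 FPKM in control and 4.34, 2.75 and 4.07 FPKM in knockdown. Each knockdown library was higher, library 2 the least so, with means of 1.33 ± 0.0258 and 3.72 ± 0.847 FPKM (SD, n = 3) and a 2.79-fold ratio. Its neighbours Cxcl9 and Cxcl11, which share the receptor CXCR3 with it, had no read in any library (Cxcl9) and 1 read in control against 12 in knockdown (Cxcl11). Ccl20 (ENSMUSG00000026166, chromosome 1, 83116766 to 83119167, plus strand) had 3.56, 3.31 and 3.47 FPKM in control and 1.59, 0.827 and 0.518 FPKM in knockdown. The 3 knockdown libraries were all low but unequal, with means of 3.45 ± 0.127 and 0.979 ± 0.553 FPKM, so 28.4% of the control level was left. Their reads were 35, 18 and 11, against 81, 73 and 81 in control.

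Cxcl1 (ENSMUSG00000029380, chromosome 5, 90891241 to 90893115, plus strand) did not differ beyond the spread between libraries. It had 8.37, 7.53 and 6.50 FPKM in control and 6.97, 6.83 and 6.93 FPKM in knockdown. The knockdown values all lay inside the control range, with means of 7.46 ± 0.937 and 6.91 ± 0.0726 FPKM (SD, n = 3). The other genes of its cluster were lower still: Cxcl2 had 0 reads in control and 3 in knockdown, Cxcl3 4 and 12, Ppbp 37 and 38, and Pf4 2 and 10, while Cxcl5 is given with the other ligands below.

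Csf1 (ENSMUSG00000014599, chromosome 3, 107741048 to 107760469, minus strand) was the most abundant of the 10 transcripts in both groups. It had 108, 118 and 104 FPKM in control and 84.5, 82.9 and 80.7 FPKM in knockdown, on 6367 to 9629 reads per library. All 3 knockdown libraries were lower, with means of 109.9 ± 6.87 and 82.7 ± 1.92 FPKM (SD, n = 3), a fall of 24.7%. Csf1 stood at 6.36 to 7.02 times the summed chemokine level in control and at 1.40 to 1.51 times in knockdown.

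The remaining 3 genes were at or near the limit of detection, and no ratio is given for them. Cxcl12 (chromosome 6, 117168535 to 117181367, plus strand) was listed at 0 in all 6 libraries, where 3 reads would have given at most 0.0246 FPKM. Cxcl16 (chromosome 11, 70453983 to 70459984, minus strand) had 7, 3 and 1 reads in control and 1, 3 and 1 in knockdown. Cx3cl1 (chromosome 8, 94772009 to 94782427, plus strand) had 3, 0 and 10 reads in control and 9, 9 and 4 in knockdown. The groups overlapped for both, and a difference was not detectable at this depth.

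By level in control the order was Csf1, Cxcl1, Ccl20, Ccl5, Ccl2, Cxcl10 and Ccl7, then Cxcl16, Cx3cl1 and Cxcl12. Ccl5, Ccl2 and Cxcl10 were neighbours whose control ranges overlapped, as did those of Cxcl16, Cx3cl1 and Cxcl12. In knockdown the order was Csf1, Ccl5, Ccl2, Ccl7, Cxcl1, Cxcl10 and Ccl20, then Cx3cl1, Cxcl16 and Cxcl12. Only the neighbours Ccl2 and Ccl7 had overlapping ranges there.

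On the scale of log2(FPKM + 1), knockdown minus control, the difference was 2.91 for Ccl5 (SE 0.146), 2.88 for Ccl7 (SE 0.164), 2.48 for Ccl2 (SE 0.116) and 1.00 for Cxcl10 (SE 0.140). It was -0.09 for Cxcl1 (SE 0.0908), -0.40 for Csf1 (SE 0.0704) and -1.20 for Ccl20 (SE 0.184). The median over these 7 genes was 1.00, beside 0.03 over all genes tested. Ranked from the most positive of 11652 differences, Ccl5 was at place 14, Ccl7 at 15, Ccl2 at 29 and Cxcl10 at 593. From the most negative, Ccl20 was at place 327, Csf1 at 2593 and Cxcl1 at 4794. Because the members were chosen on this contrast, nothing is read from their median or their places. The added 1 understates differences of low genes: with 0.01 in its place Ccl7 came to 4.04, Ccl5 to 3.47, Ccl2 to 3.12, Cxcl10 to 1.45 and Ccl20 to -1.96. With mitochondrial genes, rRNA and Gm23935 removed before rescaling, Csf1 came to -0.56 and Cxcl1 to -0.24, where the median of all genes had moved by -0.14.

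**Figure D3:**
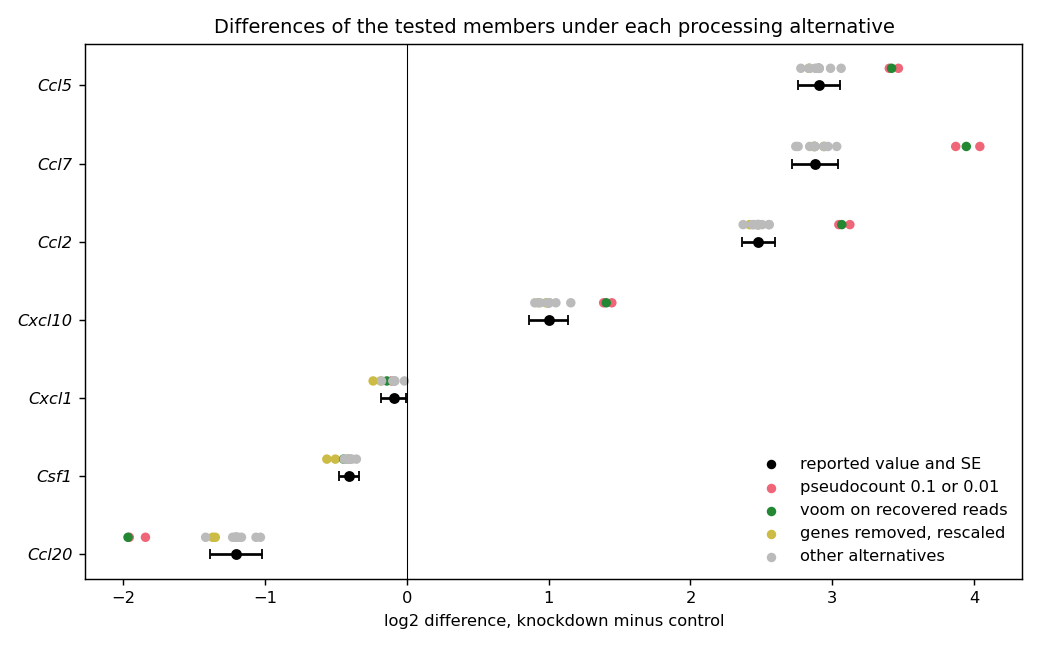
Difference between knockdown and control (horizontal axis, log2 scale) for the 7 tested genes; black points and bars give the reported value and its SE, coloured points the processing alternatives. Smaller pseudocounts and voom move Ccl7, Ccl5, Ccl2, Cxcl10 and Ccl20 away from 0, and no alternative changes the sign of any of the 7.

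The spread between libraries was set against counting error. For Ccl2, Ccl5, Ccl7, Cxcl10 and Ccl20 in knockdown, the coefficient of variation between libraries was 14.5%, 10.8%, 18.2%, 22.8% and 56.5%, against 6.76%, 5.77%, 8.32%, 8.85% and 21.7% from counting error alone. Separate libraries carry more than counting error, so these pairs only show how much of the spread read numbers could account for. Csf1 had 6.26% in control and 2.33% in knockdown against 1.04% and 1.23%. In control, Cxcl10 (1.93%), Ccl20 (3.70%) and Ccl2 (16.1%) lay below the 14.4%, 11.3% and 19.5% of counting error, while Ccl5 (31.1%), Ccl7 (46.4%) and Cxcl1 (12.6%) lay above the 18.6%, 32.2% and 6.69%. In knockdown Cxcl1 had 1.05% against 7.12%. An SD of 3 libraries below counting error understates the uncertainty of that level.

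**Figure D4:**
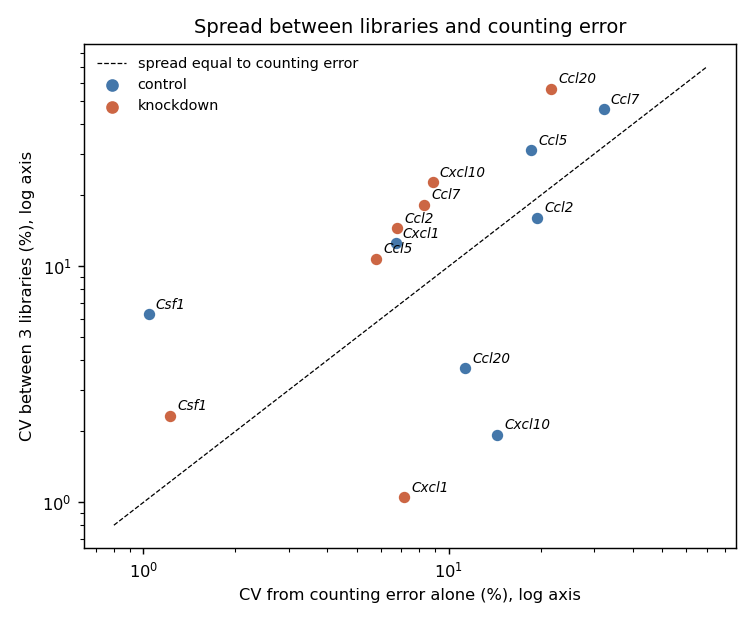
Coefficient of variation between the 3 libraries of a group (vertical axis, percent, log scale) against that from counting error alone (horizontal axis, percent, log scale) for the 7 genes above the filter; the dashed line marks equality. The 5 chemokines Ccl2, Ccl5, Ccl7, Cxcl10 and Ccl20 lie above the line in knockdown, and Cxcl1 in knockdown and Cxcl10, Ccl20 and Ccl2 in control lie below it.

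AU-rich repeats in the 3' untranslated region, at which decay factors bind many cytokine mRNAs, were unevenly spread over the genes. In 1 transcript per gene of GENCODE M21, the pentamer ATTTA occurred 7 times in the 592 bases of Cxcl1 and 9 times in the 1050 bases of Ccl20, or 11.8 and 8.57 per kb. Ccl7 had 4.60, Ccl2 3.64, Cxcl10 2.74 and Csf1 1.89 per kb, and Ccl5 had none in 199 bases. The median over 9907 genes that averaged 1 FPKM or more was 1.24 per kb. The groups overlapped for Cxcl1, with the densest repeats, and Ccl20 was lower in knockdown. Of the other tested members above this median, Ccl7, Ccl2 and Cxcl10 were higher in knockdown and Csf1 was lower. A link between the repeats and these differences was not tested. The stretches with the most pentamers are shown for Cxcl1 and Ccl20, with ATTTA in capitals:
Cxcl1: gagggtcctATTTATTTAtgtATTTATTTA
Ccl20: tgtaaagatATTTAatgttctgtttATTTA

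Among genes around the chemokines, taken from lists of other ligands, receptors, proteases, inducers, transcription factors and mRNA decay factors, most receptors and most other ligands were hardly expressed. Of 37 table entries for 31 other chemokine ligands, 18 had no read and 2 were high enough to test. Cxcl5, a neutrophil-attracting ligand, rose from 3.27 ± 0.803 to 5.99 ± 1.24 FPKM (SD, n = 3; limma adjusted p = 0.00633), with library values of 2.45, 3.32 and 4.05 against 7.22, 5.99 and 4.74. Ccl25, known for homing of T cells to the gut, fell from 2.48 ± 0.272 to 1.55 ± 0.106 FPKM (limma adjusted p = 0.00575). Of 23 chemokine receptors 2 were tested. Ccr1, a receptor of Ccl5 and Ccl7, fell from 2.34 ± 0.425 to 0.224 ± 0.0149 FPKM (limma adjusted p = 6.18e-05), on 82 to 122 reads per control library and 9 or 10 per knockdown library. Ccr1 entered the test only through its control level. Ccr10, below the filter and not tested, went the other way, with 22 reads in control and 89 in knockdown. Ackr3, a scavenging receptor of Cxcl12, had 1.27 ± 0.329 and 1.49 ± 0.0796 FPKM and did not pass (limma adjusted p = 0.378). The receptors Ccr2 and Cxcr4 had no read, and Ccr6, the receptor of Ccl20, had 1 read in control and 4 in knockdown. Csf1r, the receptor of Csf1, had 9 reads in control and 7 in knockdown, and Il34, its other ligand, had 5.43 ± 0.628 and 4.86 ± 0.604 FPKM (limma adjusted p = 0.300).

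Of 6 tested genes from a list of proteases that release or trim chemokines and of their cofactors, 2 rose, 3 fell and 1 did not pass, with a median log2 difference of -0.19. Over all genes tested, 33.3% were higher and 29.1% lower. Mmp14, a membrane metalloprotease that can cleave Ccl7 and Cxcl12, rose from 16.2 ± 0.271 to 35.9 ± 2.65 FPKM (limma adjusted p = 1.13e-05). Adam17, a sheddase of Cx3cl1, fell from 8.72 ± 0.751 to 6.82 ± 0.621 FPKM (limma adjusted p = 0.0157), and did not pass without control library 1 (limma adjusted p = 0.0517), control library 3 (0.0516) or knockdown library 2 (0.0560). Rhbdf2, an inactive rhomboid that brings ADAM17 to the cell surface, fell from 14.6 ± 0.483 to 6.39 ± 0.599 FPKM (limma adjusted p = 1.83e-05), while its relative Rhbdf1, also inactive as a protease, rose from 15.2 ± 0.771 to 20.8 ± 1.21 FPKM. The metalloprotease gene Adam8 fell from 4.03 ± 0.664 to 2.08 ± 0.286 FPKM.

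Most inducing cytokines were near 0. The exception among those listed was Lif, an IL-6 family cytokine, which had 10.5 ± 1.73 FPKM in control and 9.60 ± 0.479 FPKM in knockdown. The Lif groups overlapped. Tnf had 1 read over the 6 libraries, Il1b had 1 in each control library and none in knockdown, Ifng none, and Ifnb1 had 2 in control and 6 in knockdown. Of 16 tested genes of this list, 9 rose, 2 fell and 5 did not pass, with a median log2 difference of 0.32. That put 68.8% past the threshold beside 62.4% of all genes tested. This list too was chosen with earlier results known, and nothing is read from its share. The count of 11 went to 9 with mitochondrial genes, rRNA and Gm23935 removed, where 7289 of 11922 genes were called. The endotoxin receptor gene Tlr4 fell from 13.3 ± 0.921 to 5.15 ± 0.218 FPKM (limma adjusted p = 9.10e-06) and Il17ra from 5.68 ± 0.0598 to 3.17 ± 0.147. Tlr3, a sensor of double-stranded RNA, rose from 1.83 ± 0.225 to 4.61 ± 0.729 FPKM (limma adjusted p = 0.000180), Ifnar1, a receptor chain for type I interferon, from 8.16 ± 0.386 to 12.9 ± 0.809, and Tnfrsf1a, the main TNF receptor gene, from 54.2 ± 4.12 to 78.0 ± 7.84.

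Of 23 tested NF-kB and interferon factors, 13 rose, 7 fell and 3 did not pass, with a median log2 difference of 0.23. That put 87.0% past the threshold beside 62.4% of all genes tested. The list was chosen with earlier results of these data known, so nothing is read from its share. The count of 20 went to 16 with mitochondrial genes, rRNA and Gm23935 removed, where 7289 of 11922 genes were called. It went to 17 with protein-coding genes only, where 6844 of 10198 genes were called. Irf7, an interferon regulatory factor that is itself induced by interferon, had 28.2, 30.4 and 29.8 FPKM in control and 119, 140.1 and 131 in knockdown (log2 difference 2.10, limma adjusted p = 1.70e-06). Stat2 and Irf9, whose products belong to the complex that binds the interferon response element, rose by 1.40 and 0.93 on the log2 scale. The NF-kB subunits did not move together: Relb (14.2 ± 0.568 to 9.86 ± 0.665 FPKM) and Rel (3.17 ± 0.567 to 1.87 ± 0.189 FPKM) fell (limma adjusted p = 0.000629 and 0.00526). Nfkb1 rose from 11.2 ± 0.495 to 13.8 ± 0.445 FPKM (limma adjusted p = 0.00723), but did not pass with mitochondrial genes, rRNA and Gm23935 removed (limma adjusted p = 0.116) or with protein-coding genes only (0.0514). Nfkb2 had 61.6 ± 1.99 FPKM in control and rose to 80.3 ± 6.59 (limma adjusted p = 0.00314). With the same removal Nfkb2 no longer passed (limma adjusted p = 0.0714). Rela, the subunit that activates many chemokine genes, had 47.6 ± 3.19 and 52.7 ± 5.18 FPKM and did not pass (limma adjusted p = 0.203), although it passed without knockdown library 3 (limma adjusted p = 0.0453). Cebpb, a factor at many inflammatory promoters, fell from 210.0 ± 9.83 to 119 ± 8.89 FPKM (limma adjusted p = 6.49e-05), and Fosl1, an AP-1 subunit gene, had 64.9 ± 7.19 and 66.2 ± 0.914 FPKM and did not pass.

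Among 10 tested factors of chemokine mRNA decay and stability, 6 rose, 1 fell and 3 did not pass, with a median log2 difference of 0.25; 62.4% of all genes tested passed. Mapkapk2, a kinase that stabilises AU-rich mRNAs, rose from 70.4 ± 2.14 to 100.5 ± 7.88 FPKM (limma adjusted p = 0.000601). Khsrp rose from 64.6 ± 0.552 to 79.8 ± 4.98 FPKM and Hnrnpd from 18.5 ± 0.634 to 22.9 ± 1.52, both binding AU-rich elements, and Rc3h1, which encodes roquin, fell from 6.65 ± 0.244 to 4.86 ± 0.377. Zfp36l2 had 133 ± 5.30 and 132 ± 5.02 FPKM. The count of 7 changed genes went to 3 when mitochondrial genes, rRNA and Gm23935 were left out, where 7289 of 11922 genes were called. It went to 4 with protein-coding genes only, where 6844 of 10198 genes were called. Khsrp did not pass in either (limma adjusted p = 0.158 and 0.0541). Hnrnpd did not pass with mitochondrial genes, rRNA and Gm23935 left out (limma adjusted p = 0.134).

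**Figure D5:**
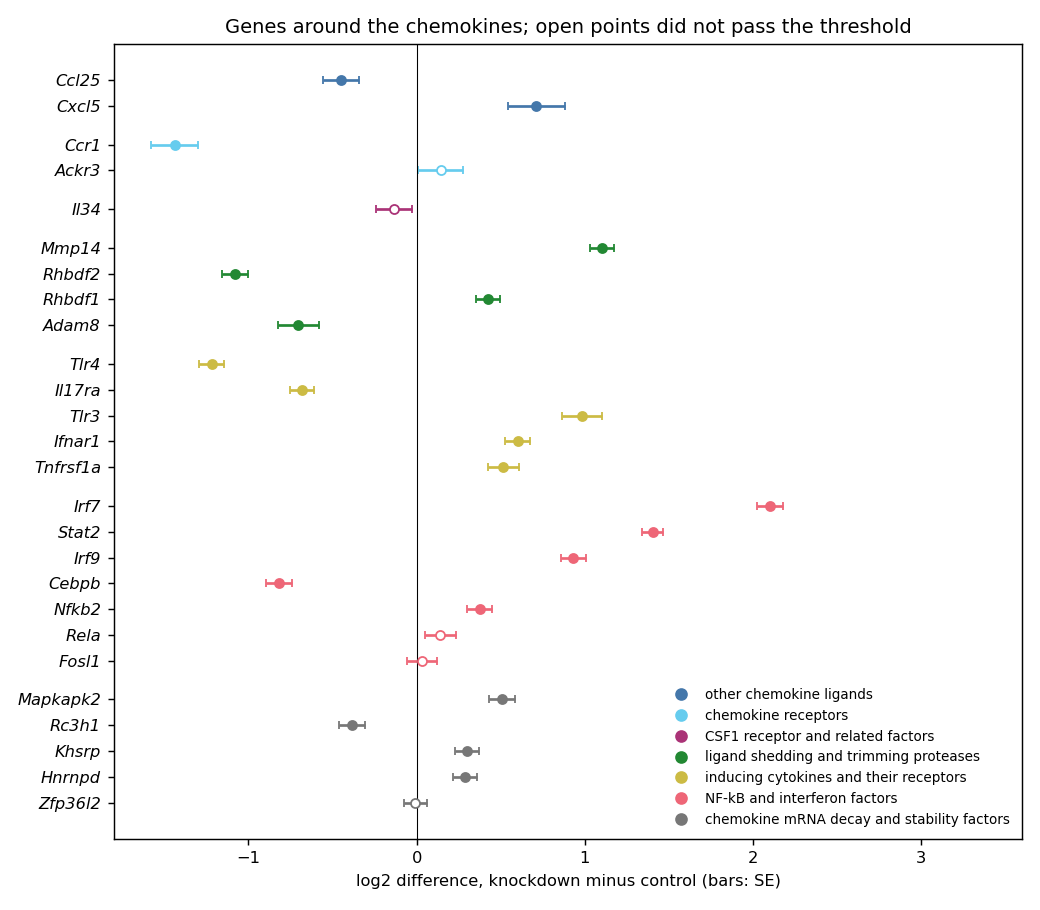
Difference between knockdown and control (horizontal axis, log2 scale, bars give the SE) for named genes of each list around the chemokines, coloured by list. Irf7 and Stat2 lie farthest to the right and Ccr1 and Tlr4 farthest to the left, and the open points of Ackr3, Il34, Rela, Fosl1 and Zfp36l2 mark genes that did not pass.

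For each of the 7 tested genes, the protein-coding gene with the most similar pattern over the 6 libraries was sought, by Euclidean distance between log2(FPKM + 1) values centred on each gene's mean. It was Thbs1, a matrix glycoprotein gene, for Ccl7 (distance 0.143), with 6.65 ± 1.45 and 54.5 ± 9.93 FPKM in control and knockdown. For Ccl5 it was Wisp2 (0.426), for Ccl2 Pcdh18 (0.281), for Cxcl10 Csprs (0.109), for Ccl20 Them4 (0.333), for Csf1 Usp36 (0.0570) and for Cxcl1 Rpl39 (0.0799). The distance takes in the difference between groups, and 62.4% of tested genes passed the test for one.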

How the data were processed

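RNA of 6 MIN6 libraries, 3 control and 3 knockdown, was extracted with Trizol and prepared with an Illumina TruSeq kit, per the labels' protocols. The authors deposited FPKM values for 54532 genes with gene coordinates and lengths. Genome builds are GRCm38 and mm10 per the submitters' processing notes; no aligner, counter or strand setting is named (not given in the sources used here). Without strand, reads of Ccl2, Cxcl10 and Cxcl16 cannot be told from those of the genes that overlap them on the opposite strand, Gm17268, Art3 and Zmynd15, whose mean FPKM was at most 0.0332 in either group. Start, end and strand of all 10 genes matched GENCODE M21.

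FPKM times the deposited gene length was a whole multiple of 1 step, within 0.01, for 100% of the values above 0 of every library, which gave the reads per gene. Intervals and floors of 3 reads cover counting error only. The fit was limma 3.58.1 in R 4.3.3 (lmFit, eBayes with trend) with log2(FPKM + 1) of 11652 genes averaging 1 FPKM or more over all libraries. Benjamini-Hochberg adjustment was over all of them, with a threshold of 0.05. The same fit was run on simulated reads in which few genes changed, unlike these data, so no error rate is taken from that run. Tables were made in Python 3.11.15 (pandas 2.3.3; numpy 2.4.6; scipy 1.17.1). The 3' untranslated region of each gene came from the GENCODE M21 transcript with the longest coding sequence.

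The members and lists were chosen with earlier results of these data known. Named genes were the 10 members, Ppp2ca, the tested genes of a list where at most 3 were tested, otherwise the 4 with the smallest p and any averaging 50 FPKM or more in a group, and the nearest gene to each tested member. Neighbouring chemokine genes, receptors and inducers of the members, and marker genes, Ccr10, Lif, Adam17, Relb, Rel and Nfkb1 were named besides. Those not at 0 were chosen after their values were seen. Some genes the rule names are not reported here. Symbols that name several table entries were counted once per entry. Alternatives were other pseudocounts, filters, scalings and variance models, voom on recovered reads with trimmed-mean scaling, a block for the replicate number, and fits without 1 library at a time.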

Additional observations from a re-analysis of the deposited data

How the results depend on the processing

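Of 117 values of the 7 tested members under the alternatives, 99 moved by less than the spread between replicates, 18 moved by more, and none changed sign. Removing mitochondrially encoded genes, rRNA and Gm23935 and rescaling each library to its FPKM sum left 38.9% of 7289 called genes higher, against 53.4% of 7267 as reported, and 46.9% of 6844 were higher with protein-coding genes only. Without a filter on low values, 8123 of 26998 genes were called. They took in 5 other ligands (Cxcl5, Ccl25, Ccl9, Ccl8 and Pf4), 2 receptors (Ccr1 and Ccr10) and 1 gene of the CSF1 list (Csf2). Ccl25, Ccr1 and Csf2 had a lower mean in knockdown and the others a higher one. Ccl8 rested on 1 read in control and 10 in knockdown, and Pf4 on 2 and 10. With a minimum mean of 5 FPKM, called ligands and receptors numbered 0, since none of either list was tested there. Called decay factors numbered 3 and 4 in place of 7 with the removal and with protein-coding genes only. Of all genes tested in those fits, 7289 of 11922 and 6844 of 10198 were called. Among other genes named by the rule, 447 values kept their call, 4 lost it and 1 gained it. A change of sign between fits that were both uncalled was counted as kept. Adam17 and Nfkb1, named besides, are not in these counts and lost the call under the alternatives given with them above. Same-numbered libraries of the groups had deviations that correlated at -0.01, 0.16 and 0.05, and different-numbered ones at -0.18 to 0.13. With 3 libraries per group, these values cannot decide whether the numbers pair libraries. With the replicate block 7363 genes were called. Depth limits Cxcl12, Cxcl16, Cx3cl1 and the control level of Ccl7.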
